A study of Mus musculus with 9 samples.

Results

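The 44 genes described here, which copy DNA or supply the nucleotides and histones for it, were followed through neurogenesis in the embryonic mouse cortex. The list holds 44 symbols, and all 44 were found by exact symbol among the 21210 genes of the deposited table. They cover the MCM helicase and its loading (9 genes), origin firing (6), DNA polymerases and primase (9), the sliding clamp and its loader (6), single-strand DNA binding (3), Okazaki fragment joining (2), nucleotide supply and uracil removal (6), and histone supply and chromatin assembly (3). All 44 passed the filter on low values, a normalised read count of at least 10 in at least 3 libraries, which 15828 genes passed.

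The samples were 9 poly-A RNA libraries of cells sorted from lateral cortex of C57BL/6 embryos at embryonic day 14.5, all labelled with the genotype Btg2GFP/Tubb3GFP. Proliferating progenitors were the Btg2-negative cells (RFPminus in the titles), differentiating progenitors the Btg2-positive cells (RFPplus), and neurons the Tubb3-positive cells (GFPplus), with 3 libraries each. The titles give red for the Btg2 reporter and the genotype label gives green for both. Each library came from a pool of cells of several embryos of different litters, so p-values measure the spread between pools. Btg2 is switched on in progenitors that will make neurons, and Tubb3 encodes a neuronal tubulin. Differentiating against proliferating progenitors is called the first step here and neurons against differentiating progenitors the second step.

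A cell copies its genome in S phase. In G1 the origin recognition complex, Cdc6 and Cdt1 load the ring of Mcm2 to Mcm7 onto DNA. The kinase Cdc7 with its activator Dbf4, the GINS complex and Mcm10 then turn the loaded ring into a moving helicase, and polymerases held by the clamp Pcna copy the strands. Many of these genes are transcribed at the G1/S boundary by E2F factors, while mitotic genes are transcribed later, largely through CHR and CCAAT elements. Cortical progenitors cycle, and cortical neurons have left the cell cycle.

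Promoter sequence was read from RefSeq windows of 300 bases on GRCm38.p6, from 250 before to 50 after each start, which is a later build than the mm9 of the deposited data. Windows were found for 37 of the 44 genes, 43 windows in all. An E2F motif was searched as TTTCCCGC, TTTCGCGC, TTTGCCGC or TTTGGCGC on either strand, and matches could overlap. It was present in 13 of 43 windows (30.2%), against 2.27% of all 32851 windows and 3.71% of the 12597 windows of genes tested here. Of the 13 genes with a match, 6 were among the 7 MCM and loading genes with a window (Cdc6, Cdt1, Mcm3, Mcm5, Mcm6 and Mcm7). A further 4 were polymerase genes (Pola1, Pold1, Pold3 and Pole2), and Gins3, Rfc3 and Lig1 were the others. No window of the 6 nucleotide supply genes, of the 3 RPA genes or of the 3 histone supply and chromatin assembly genes held these letters. The 7 genes with a match wholly before the start follow as 80-base stretches, because their matches can be read beside the levels that follow. Capitals mark the E2F matches, and each sequence runs 5′ to 3′ along the gene.
Mcm5 (chr8:75109322-75109401, plus strand): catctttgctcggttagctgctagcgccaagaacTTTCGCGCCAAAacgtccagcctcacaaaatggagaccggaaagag
Mcm6 (chr1:128359741-128359820, minus strand): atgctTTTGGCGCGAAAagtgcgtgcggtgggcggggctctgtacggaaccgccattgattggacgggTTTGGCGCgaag
Mcm7 (chr5:138172005-138172084, minus strand): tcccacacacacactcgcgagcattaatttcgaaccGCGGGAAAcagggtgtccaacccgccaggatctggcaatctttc
Cdc6 (chr11:98907977-98908056, plus strand): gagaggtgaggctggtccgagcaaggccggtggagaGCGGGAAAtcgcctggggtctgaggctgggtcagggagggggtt
Gins3 (chr8:95633479-95633558, plus strand): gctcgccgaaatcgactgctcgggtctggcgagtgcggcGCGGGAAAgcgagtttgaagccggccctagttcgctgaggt
Pola1 (chrX:93632250-93632329, minus strand): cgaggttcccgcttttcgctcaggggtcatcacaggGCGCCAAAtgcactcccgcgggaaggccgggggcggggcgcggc
Rfc3 (chr5:151651209-151651288, minus strand): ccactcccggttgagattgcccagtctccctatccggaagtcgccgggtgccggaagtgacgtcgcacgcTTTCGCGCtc
In Mcm5 a pair of matches on opposite strands overlaps in the single run of capitals, and in Mcm6 such an overlapping pair stands upstream of another match.

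The mitotic elements were distributed otherwise. CCAAT, the NF-Y motif, was in 48.8% of the windows of the 44 genes, in 77.8% of 27 windows of mitosis genes and in 37.5% of windows of tested genes. TTTGAA, the CHR motif, was in 16.3% of the windows of the 44 genes, in 74.1% of those of mitosis genes and in 11.6% of those of tested genes. The E2F letters stood in 1 of the 27 mitosis windows (3.7%). A match is a description of the letters and not a binding site.

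All 44 genes were lower in neurons than in either progenitor population, while only 12 passed the test at the first step. Per library, the summed level of the 44 genes was 99533, 117425 and 125449 normalised reads in proliferating progenitors, 86563, 83873 and 91180 in differentiating progenitors, and 16288, 17629 and 17858 in the neuron libraries, with no overlap between groups. At the first step 12 of 44 were called lower and 0 higher, where 11.1% of all genes tested were called lower and 13.8% higher (limma with Benjamini-Hochberg adjustment over 15828 genes, threshold 0.05). At an unadjusted p under 0.05, 21 were lower and 1 higher. The share of all genes at an unadjusted p under 0.05 was not counted, so unadjusted counts here and below have no background. At the second step 44 of 44 were called lower, against 26.4% of all genes lower and 27.6% higher. Between neurons and proliferating progenitors 44 of 44 were again lower, against 31.1% of all genes lower and 32.2% higher. The shares of all genes at the adjusted threshold also apply to the adjusted counts by role and by list below in the same fit.

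The median log2 change of the 44 genes was -0.34 at the first step and -2.41 at the second, beside -0.02 and -0.01 over all genes tested. At the first step 41 of 44 estimates lay below 0, and the 3 above were those of Dbf4, Fen1 and Rrm1. The 3 differentiating libraries lay below all 3 proliferating ones for 17 of 44 genes, a pattern found in 18.8% of all genes tested. They overlapped for 26 genes and lay above for Dbf4 alone. At the second step every neuron library lay below every differentiating one for all 44, a pattern found in 29.5% of all genes tested. The test of the difference between the steps called a larger fall at the second step for 40 of 44 genes, where 16.2% of all genes were called in that direction and 15.2% in the other. The 4 genes not called were Cdc7, Rfc2, Rfc3 and Pole2. With replicate number as a block all 44 were called, beside 27% of all genes in that direction. In sorted pools, fewer expressing cells and less RNA per cell cannot be told apart.

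**Figure D1:**
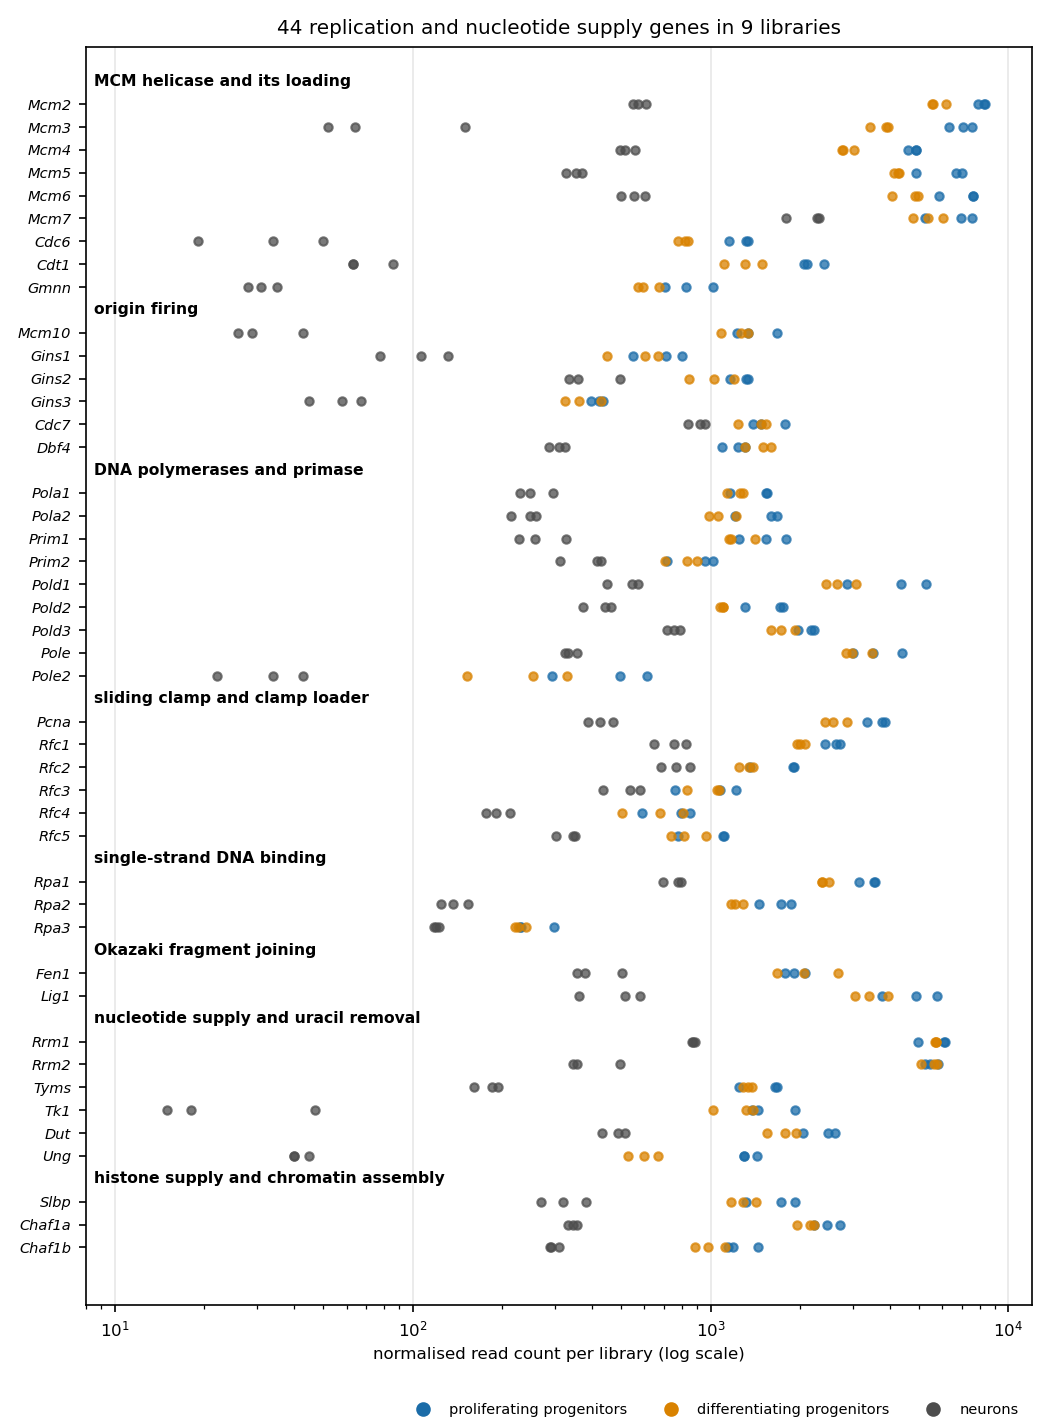
Normalised read count (x axis, log scale) of each of the 44 genes in each of the 9 libraries, grouped by role. Every point is 1 library. The neuron points lie to the left of all 6 progenitor points in every row, whereas the progenitor groups overlap in 26 of the 44 rows.

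The first-step count depended on how replicates were treated. Libraries of equal replicate number deviated together, and with replicate number as a block 27 of the 44 genes were called lower and 1 higher, Dbf4 (adjusted p = 0.026), beside 22% of all genes called lower and 24% called higher in that fit. The 15 genes that the block added to the 12 called lower were Gmnn, Mcm3, Mcm7, Gins2, Pola2, Pold1, Pold3, Pole2, Prim1, Rfc2, Rfc5, Lig1, Slbp, Chaf1a and Chaf1b, with adjusted p from 0.00012 to 0.0499. Without proliferating replicate 2, or without proliferating replicate 3, 7 genes were called lower, beside 1114 and 1193 of all 15828 genes tested. These 7 were Cdt1, Mcm2, Mcm4, Mcm6, Pcna, Rpa1 and Ung, which were called in every setting run. The other 5 of the 12 were Dut, Mcm5, Pold2, Rfc1 and Rpa2. The authors' deposited table lists 11 of the 44 as lower at an adjusted p of at most 0.05 at the first step, where it lists 13.66% of all its genes in either direction. Of these 11, 9 were among the 12 here, and the remaining ones were Mcm3 and Cdc6. The same table lists all 44 as lower at the second step and from proliferating progenitors to neurons. Over all its genes it lists 34.3% and 42.43% in either direction for these comparisons.

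The libraries differed in ways that touch these values. Proliferating replicate 1 was the lowest of its group for 37 of the 44 genes and proliferating replicate 3 the highest for 32. Without proliferating replicate 1, 17 of the 44 genes were called lower at the first step, beside 1466 of all 15828 genes tested. The summed level of 8 red blood cell markers was 70320 to 177734 in proliferating progenitors, with the top value in replicate 1, 159 to 1455 in differentiating progenitors and 142 to 198 in neurons; of these markers Hbb-bh1 was among those at 0 in at least 1 library. In proliferating replicate 1 they made 1.01% of the total, and in the 6 libraries of the other groups at most 0.0079%. The 7 microglia markers summed to 169 to 228, 85 to 116 and 25 to 36 in the same order of groups, with Aif1, C1qa, C1qb, Tyrobp and Ptprc at 0 in at least 1 library. The 8 endothelial and mural markers summed to 579 to 1237, 330 to 352 and 64 to 110, with Cldn5 and Tek at 0 in at least 1 library. Their part in the first-step differences was not tested. Defining markers of the labelled populations moved at the first step too. The 11 radial glia genes summed to 142681 to 162894 in proliferating progenitors, 66498 to 96011 in differentiating progenitors and 6105 to 7838 in neurons, and 7 of the 11 were called lower at the first step. The 8 intermediate progenitor genes were highest in differentiating progenitors (62976 to 79419). The 8 neuronal genes summed to 2166 to 6075 in proliferating progenitors, 32777 to 39949 in differentiating progenitors and 155577 to 184037 in neurons. At the first step 7 of the 8 neuronal genes were called higher (median log2 change 3.09), beside the median of -0.34 of the 44 genes, and the part of neuronal RNA in that fall was not tested. Over all genes tested 11.1% were called lower at that step and 13.8% higher. The intermediate progenitor list holds Btg2 and the neuronal list Tubb3, whose reporters defined the groups, so these lists are not independent of the sort. Normalised totals ran from 17531558 to 22076409.

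The helicase and its loading held 5 of the 12 genes called at the first step. All 9 estimates were below 0, and their median log2 change of -0.60 was the lowest of the 8 roles. Mcm4, a subunit of the catalytic core of the ring, read 4608, 4888 and 4907 in proliferating progenitors, 3036, 2768 and 2794 in differentiating progenitors, with 496, 516 and 556 left in neurons. All 3 groups were separate, and the first-step change was -0.74 ± 0.08 (SE, log2) with an adjusted p of 0.0002. Mcm2, a regulatory subunit of the ring, read 7901, 8360 and 8311, then 6180, 5541 and 5571, then 608, 549 and 569. Its first-step change was -0.51 ± 0.08 (adjusted p = 0.0015) and its second-step change -3.32 ± 0.08 (adjusted p = 4.2e-08). The second-step change of Mcm2 exceeded the first by -2.81 ± 0.13 in the test of the difference (adjusted p = 6.1e-06). Mcm5 (adjusted p = 0.016) and Mcm6 (0.01) were also called at the first step, with -0.53 ± 0.13 and -0.60 ± 0.13.

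The loading factors were low in neurons. Cdt1, which brings the ring to the origin, read 2112, 2056 and 2399 in proliferating progenitors, 1486, 1110 and 1303 in differentiating progenitors, then 86, 63 and 63 in neurons. Its first-step change was -0.76 ± 0.16 (adjusted p = 0.0073), and neurons kept 3.23% of the proliferating level. Cdc6, its ATPase partner in loading, read 1150, 1313 and 1331, then 839, 780 and 821, then 50, 34 and 19. The differentiating libraries were all below the proliferating ones, yet the first-step change of -0.63 ± 0.28 missed the threshold (adjusted p = 0.14). In a fit of the 2 progenitor groups alone the adjusted p was 0.0054. With the replicate block it was 0.056 and with libraries scaled to equal totals 0.099. The inhibitor of Cdt1, geminin (Gmnn), read 702, 826 and 1016, then 570, 592 and 672, then 35, 31 and 28, so that neurons kept 3.69%.

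Among the ring subunits Mcm2 to Mcm7, neurons kept the lowest share of Mcm3 and the highest of Mcm7. Mcm3 read 6311, 7020 and 7532 in proliferating progenitors, 3950, 3431 and 3897 in differentiating progenitors, then 150, 64 and 52 in neurons. Neurons kept 1.27% of its proliferating level, the lowest share of the 44 genes, and 0.834% without neuron replicate 1. Its first-step change of -0.89 ± 0.32 was not called (adjusted p = 0.079) in the fit of all 9 libraries. With the replicate block it was called (adjusted p = 0.023), and in a fit of the 2 progenitor groups alone the adjusted p was 0.0019. With libraries scaled to equal totals it was 0.059. Mcm7 read 5257, 6946 and 7545, then 4793, 5392 and 6036, then 1795, 2284 and 2315. The progenitor groups overlapped (-0.27 ± 0.16, adjusted p = 0.27, and 0.0029 with the block), and neurons kept 32.4%. Its second-step change was -1.35 ± 0.16 (adjusted p = 8e-05), the smallest of the 9 genes.

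Per length the 6 subunits were close to one another in progenitors and far apart in neurons. In normalised reads per kb of the length in the deposited table, proliferating progenitors ranged from 1338 for Mcm4 to 2430 for Mcm2, a 1.82-fold span. Differentiating progenitors spanned 2.14-fold, and neurons 16.2-fold, from 29.6 for Mcm3 to 482 for Mcm7. Without neuron replicate 1, where Mcm3 read highest, the neuron span was 26.8-fold, from 19.4 to 519.5. Mcm7 made 13.5% ± 1.11 of the summed level of the 6 in proliferating progenitors (SD, n = 3), 16.8% ± 1.69 in differentiating progenitors and 45.5% ± 3.96 in neurons. Mcm3 made 21.2% ± 0.638, 17.3% ± 1.02 and 2.88% ± 1.9 in the same order, with 1.99% and 1.59% in neuron replicates 2 and 3. The other 4 subunits made between 9.53% (Mcm5) and 16.3% (Mcm2) each in neurons. In the later GENCODE M21 annotation the exons of Mcm7 share 321 bases (7.25% of its exon length) with Ap4m1 and 64 bases with Cops6, both on the opposite strand. Ap4m1 read 854 to 1479 and Cops6 931 to 1777 across the 9 libraries. The libraries were strand-specific, but the sources used here do not say whether counting used strand, so reads of such partners may not have been told apart. Exon bases are shared with another gene by 13 of the 44, with the largest shares in Fen1, Gins2 and Chaf1a.

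**Figure D2:**
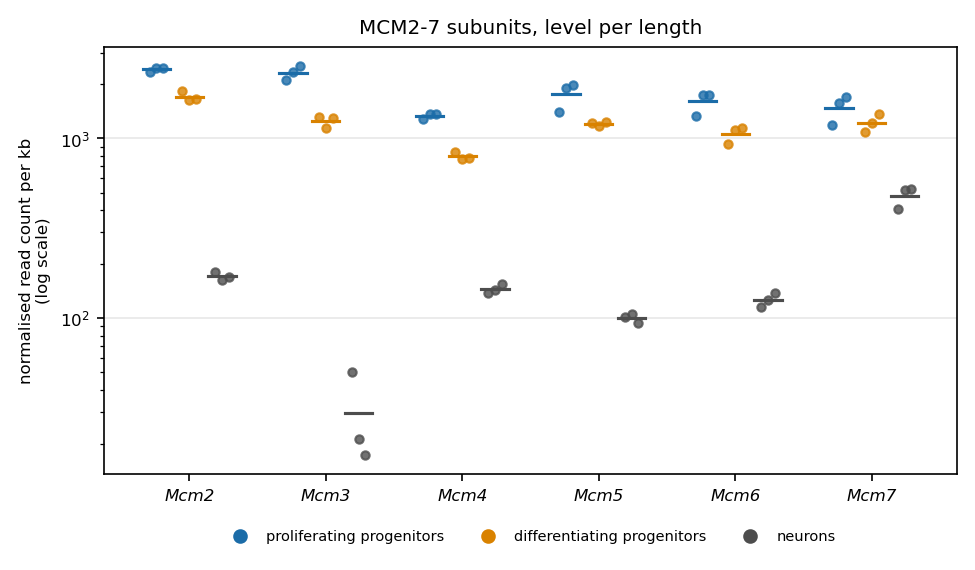
Level per length (y axis, normalised reads per kb, log scale) of the 6 MCM subunits, with 1 point per library and a line at each mean of 3. The subunits lie within a 1.82-fold span in proliferating progenitors, and in neurons Mcm3 (29.6) and Mcm7 (482) lie 16.2-fold apart (26.8-fold without neuron replicate 1).

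At the first step limma called 0 of the 6 origin firing genes, with 0 lower and 1 higher (Dbf4) at an unadjusted p under 0.05, and at the second step it called all 6. With the block Gins2 was called lower (adjusted p = 0.024) and Dbf4 higher. Mcm10, which joins the helicase as it starts to move, read 1230, 1336 and 1674 in proliferating progenitors, 1265, 1082 and 1331 in differentiating progenitors, with 43, 29 and 26 left in neurons. Its progenitor groups overlapped (-0.20 ± 0.20, adjusted p = 0.55), and the second-step change was -5.21 ± 0.20 (adjusted p = 1.1e-07). Its difference between the steps, -5.02 ± 0.34, was the largest of the 44 after that of Tk1. Gins3 and Gins1, subunits of the GINS part of the helicase, kept 13.5% and 15.3% in neurons. Gins4, a GINS subunit that is not among the 44, kept 53.7%. Gins2 kept 31.2%, with 1334, 1164 and 1320, then 1196, 848 and 1031, and a mean of 398 ± 87.6 (SD, n = 3) in neurons. In GENCODE M21, 67.3% of the exon length of Gins2 lies on exons of Gse1 on the opposite strand, and Gse1 read 5209 to 11194, so the level of Gins2 is uncertain.

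Neurons kept 58.7% of the kinase Cdc7, the largest share of the 44, and 25.4% of its activator Dbf4. Cdc7 read 1391, 1475 and 1782 in proliferating progenitors, 1481, 1241 and 1540 in differentiating progenitors, then 842, 925 and 962 in neurons. Its second-step change was -0.64 ± 0.12 (adjusted p = 0.0018). The difference between the steps of Cdc7 was -0.52 ± 0.21, with an adjusted p of 0.1 in the fit without a block and 0.012 with the block. Dbf4 read 1095, 1234 and 1306, then 1600, 1310 and 1506, then 325, 287 and 311. All differentiating libraries were above all proliferating ones, by 0.28 ± 0.11 (adjusted p = 0.1, and 0.026 with the block), and the difference between its steps was -2.53 ± 0.19 (adjusted p = 2.3e-05). In a fit of the 2 progenitor groups alone the first-step adjusted p of Dbf4 was 0.15, and with libraries scaled to equal totals 0.24.

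Of the 9 polymerase and primase genes 1 was called at the first step, Pold2, and all 9 at the second. Over all genes tested 11.1% were called lower at the first step, so 1 of 9 is near that share, and 26.4% at the second. Pold2, an accessory subunit of polymerase delta, read 1304, 1746 and 1705 in proliferating progenitors, 1080, 1098 and 1099 in differentiating progenitors, then 373, 464 and 442 in neurons. Its first-step change was -0.52 ± 0.13 (adjusted p = 0.018). Pole, the catalytic subunit of the leading-strand polymerase epsilon, read 2997, 3504 and 4410, then 2976, 2849 and 3484, and in neurons a mean of 338 ± 15.3 (SD, n = 3). The progenitor groups overlapped for Pole, and its second-step change was -3.19 ± 0.14 (adjusted p = 2e-07). Pole2, a noncatalytic subunit of polymerase epsilon, read 294, 496 and 613, then 152, 254 and 331, then 22, 34 and 43, with a wide spread in each group. Its first-step change of -0.93 ± 0.37 did not pass (adjusted p = 0.11), nor did the difference between its steps (-1.91 ± 0.65, adjusted p = 0.052). With the block both passed (adjusted p = 0.00012 and 2.6e-05), and Pola2, Pold1, Pold3 and Prim1 were called lower at the first step as well. In that fit 22% of all genes were called lower at the first step.

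Within polymerase delta, neurons kept a lower share of the catalytic subunit than of the accessory ones. Pold1, the catalytic subunit of polymerase delta, read 2881, 4355 and 5283 in proliferating progenitors and 451, 547 and 572 in neurons, a kept share of 12.5%. Neurons kept 26.9% of Pold2 and 35.4% of Pold3, another accessory delta subunit. In polymerase epsilon they kept 9.28% of Pole and 7.06% of Pole2. Per length, Pold1 made 37.8% ± 4.81 of the summed delta subunits in proliferating progenitors and 16.8% ± 1.06 in neurons. Pold4, the smallest delta subunit, which is not among the 44, read 35, 22 and 23, then 28, 41 and 42, then 117, 118 and 108. It rose by 2.09 ± 0.25 from proliferating progenitors to neurons (adjusted p = 6.2e-05), and its part of the delta sum went from 1.38% ± 0.656 to 19.7% ± 1.91. Of the priming complex, neurons kept 18.2% of Pola1, 16.1% of Pola2 and 17.8% of Prim1. Prim2, the large primase subunit, kept 43%, with 716, 955 and 1020 in proliferating progenitors, 704, 833 and 901 in differentiating progenitors, then 313, 428 and 416 in neurons.

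Neurons kept less of the clamp than of its loader. Pcna, the ring that tethers polymerases, read 3359, 3849 and 3750 in proliferating progenitors, 2882, 2574 and 2423 in differentiating progenitors, then 470, 387 and 427 in neurons. Its changes were -0.48 ± 0.10 at the first step (adjusted p = 0.01) and -2.62 ± 0.10 at the second (adjusted p = 1.3e-07). A near copy, Pcna-ps2, has its own row with 2820, 804 and 771, then 2155, 575 and 478, then 370, 93 and 80, so reads could be split between them. The sums of both rows were 6179, 4653 and 4521, then 5037, 3149 and 2901, and the progenitor groups then overlapped, while within each replicate number the sum was lower in differentiating progenitors. Replicate 1 was the highest of its group for the copy in all 3 groups. Processed pseudogenes as a class made 1.59% to 2.24% of the total in the 3 replicate 1 libraries and 0.422% to 0.614% in the other 6.

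Neurons kept between 25.8% (Rfc4) and 50.8% (Rfc3) of the 5 clamp loader subunits. In GENCODE M21, 12.65% of the exon length of Rfc4 lies on opposite-strand exons of Eif4a2, which read 3936 to 8762. For Rfc5 it is 10.69%, on Wsb2, which read 727 to 2844 and was highest in neurons, so both levels are uncertain. Rfc1, the large subunit, was called at the first step (-0.37 ± 0.10, adjusted p = 0.03), with 2423, 2726 and 2639, then 1948, 1999 and 2082, then 645, 754 and 830. Rfc3 read 761, 1079 and 1214, then 831, 1064 and 1050, then 435, 579 and 537, a first-step change of -0.03 ± 0.19 (adjusted p = 0.94) and a kept share of 50.8%. Rfc2 read 1352, 1905 and 1899, then 1247, 1387 and 1349, then 684, 851 and 766. For neither did the steps differ past the threshold (adjusted p = 0.071 for Rfc3 and 0.24 for Rfc2), and with the block they did for both (0.00045 and 0.022). Rfc2 (adjusted p = 0.0046) and Rfc5 (0.0499) were called lower at the first step with the block. Rfc2 had the highest level per length of the 44 in neurons, 505 ± 55 normalised reads per kb, beside 482 for Mcm7; the next was Pold2 at 225. In proliferating progenitors that place was taken by Mcm2 and in differentiating progenitors by Rrm2. Within the loader Rfc5 had the lowest and Rfc2 the highest level per length in all 3 groups.

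Of RPA, the trimer that coats single-stranded DNA, neurons kept the lowest share of the middle subunit. Rpa2 read 1460, 1718 and 1864 in proliferating progenitors, 1205, 1175 and 1283 in differentiating progenitors, then 125, 137 and 153 in neurons, a kept share of 8.23%. Rpa1, the large DNA-binding subunit, read 3140, 3530 and 3556, then 2497, 2363 and 2372, then 691, 779 and 796, and kept 22.2%. Rpa3, the small subunit, read 298, 229 and 232, then 240, 221 and 226, then 123, 118 and 120, and kept 47.6%. Rpa1 (-0.50 ± 0.09, adjusted p = 0.0031) and Rpa2 (-0.45 ± 0.12, adjusted p = 0.022) were called at the first step, and the libraries of Rpa3 overlapped. Per length, Rpa2 made 40.1% ± 2.74 of the trimer sum in proliferating progenitors and 16% ± 0.932 in neurons, while Rpa3 went from 16.1% ± 3.38 to 36.9% ± 2.3.

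Of the flap nuclease and the ligase of lagging-strand joining, limma called 0 at the first step, also at an unadjusted p under 0.05, and both at the second. Fen1, which trims the flap, read 2074, 1776 and 1906 in proliferating progenitors, 2680, 1677 and 2055 in differentiating progenitors, then 503, 356 and 380 in neurons. Differentiating replicate 1 stood above the rest, and without it the first-step estimate turned from 0.13 to -0.04. Lig1, which seals the nick, read 3776, 4895 and 5743, then 3063, 3409 and 3950, then 361, 516 and 580. Its first-step change was -0.45 ± 0.20 (adjusted p = 0.15, and 0.0006 with the block), and neurons kept 10.1% of it and 21.5% of Fen1. In GENCODE M21, 78.8% of the exon length of Fen1 lies on Gm10143 on the opposite strand, which read 47 to 448, so the level of Fen1 is uncertain.

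**Figure D3:**
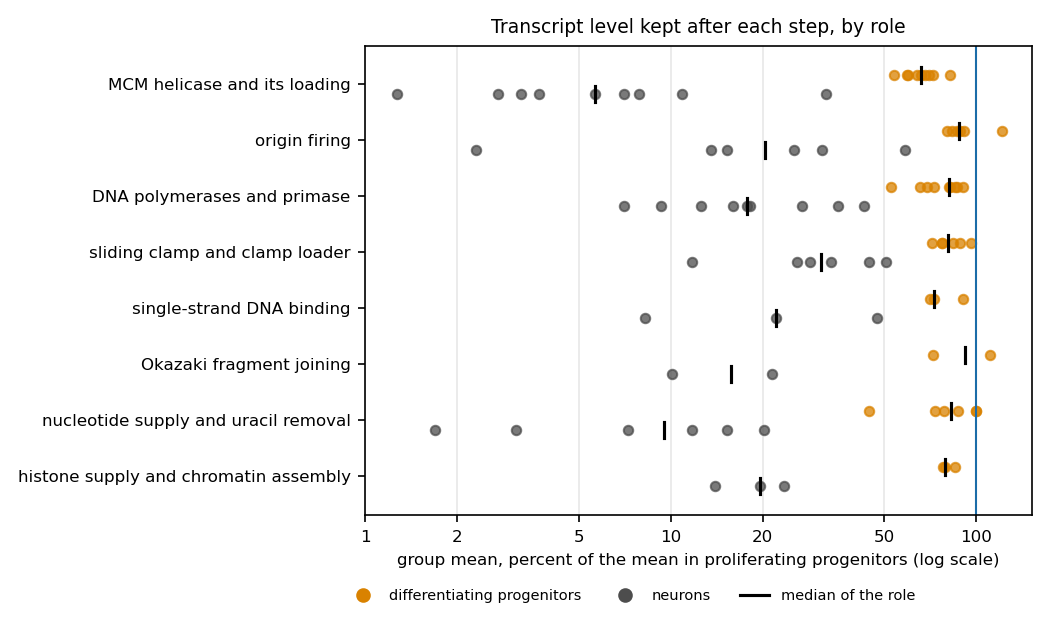
Mean of differentiating progenitors and of neurons as a percent of the mean of proliferating progenitors (x axis, log scale), with 1 point per gene and population in rows by role. The median share kept in neurons ran from 5.67% for the MCM and loading genes to 31.1% for the clamp and its loader, while in differentiating progenitors all 8 role medians lay between 65.9% and 91.9%.

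Over all 44 genes differentiating progenitors held a median of 78.9% of the proliferating level, from 44.6% for Ung to 121% for Dbf4. Neurons held a median of 15.3%, from 1.27% for Mcm3 to 58.7% for Cdc7. Under 10% was left of 14 genes and under 5% of 7, and over 30% of 9. The members with an E2F match had a median log2 change of -3.31 from proliferating progenitors to neurons (13 genes, from -6.43 to -0.96), and those with a window and no match -2.42 (24 genes, from -6.00 to -0.76). The ranges overlap, and Rfc3 and Mcm7, both printed above with a match, were among the best kept.

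Of the 6 nucleotide supply genes, Ung and Dut were called lower at the first step. Ung, which removes uracil from DNA, read 1298, 1291 and 1433 in proliferating progenitors, 668, 528 and 597 in differentiating progenitors, then 40, 40 and 45 in neurons. No gene of the 44 fell more at the first step (-1.17 ± 0.12, adjusted p = 0.0002). Dut, which destroys dUTP so that uracil is not built in, changed by less (-0.44 ± 0.13, adjusted p = 0.035), with 2046, 2622 and 2471, then 1544, 1939 and 1777, then 432, 518 and 491. The subunits of ribonucleotide reductase, the enzyme that makes deoxynucleotides, overlapped between the progenitor groups. Rrm1, the large subunit, read 4955, 6136 and 6066, then 5712, 5732 and 5672, then 873, 884 and 870, and Rrm2, the S-phase small subunit, read 5244, 5435 and 5805, then 5770, 5082 and 5635, then 496, 357 and 345. Their first-step changes were 0.00 ± 0.09 and -0.00 ± 0.14, and changes in scaling turned the sign of each. Both fell at the second step, with changes of -2.70 ± 0.09 for Rrm1 (adjusted p = 6.8e-08) and -3.80 ± 0.14 for Rrm2 (adjusted p = 9.1e-08).

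Tyms and Tk1 were called lower at the second step and not at the first. Tyms, which makes dTMP from dUMP, read 1250, 1652 and 1678, then 1283, 1338 and 1377, then 185, 161 and 193, and its progenitor groups overlapped (-0.18 ± 0.13, adjusted p = 0.37). Tk1, the cytosolic thymidine kinase of S phase, read 1445, 1373 and 1918, then 1394, 1017 and 1319, then 47, 15 and 18. Neurons kept 1.69% of Tk1, with a second-step change of -5.66 ± 0.37 (adjusted p = 1.7e-06), and 1.05%, with a change of -6.14, without neuron replicate 1, which was the highest. The same library led for Mcm3 (150 against 64 and 52), Cdc6 and Mcm10, and there the 30 mitosis genes summed to 5691 against 3037 and 2951. Its part in these values was not tested.

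Rrm2b and Tk2, which are not among the 44, rose in neurons. Rrm2b, the small reductase subunit of non-dividing cells, read 223, 194 and 157 in proliferating progenitors, 230, 230 and 244 in differentiating progenitors, then 402, 371 and 363 in neurons. It rose by 0.99 ± 0.14 from proliferating progenitors to neurons (adjusted p = 0.00022). Tk2, the mitochondrial thymidine kinase, read 392, 441 and 422, then 452, 507 and 571, then 854, 927 and 955, a rise of 1.12 ± 0.11 (adjusted p = 1.7e-05). Per length, Rrm2b was 0.873% ± 0.212 of the summed reductase subunits in proliferating progenitors and 14% ± 0.325 in neurons, and Tk2 was 36.8% ± 4.38 of the 2 kinases and then 98.6% ± 0.969. Both rises kept their call under every scaling run.

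**Figure D4:**
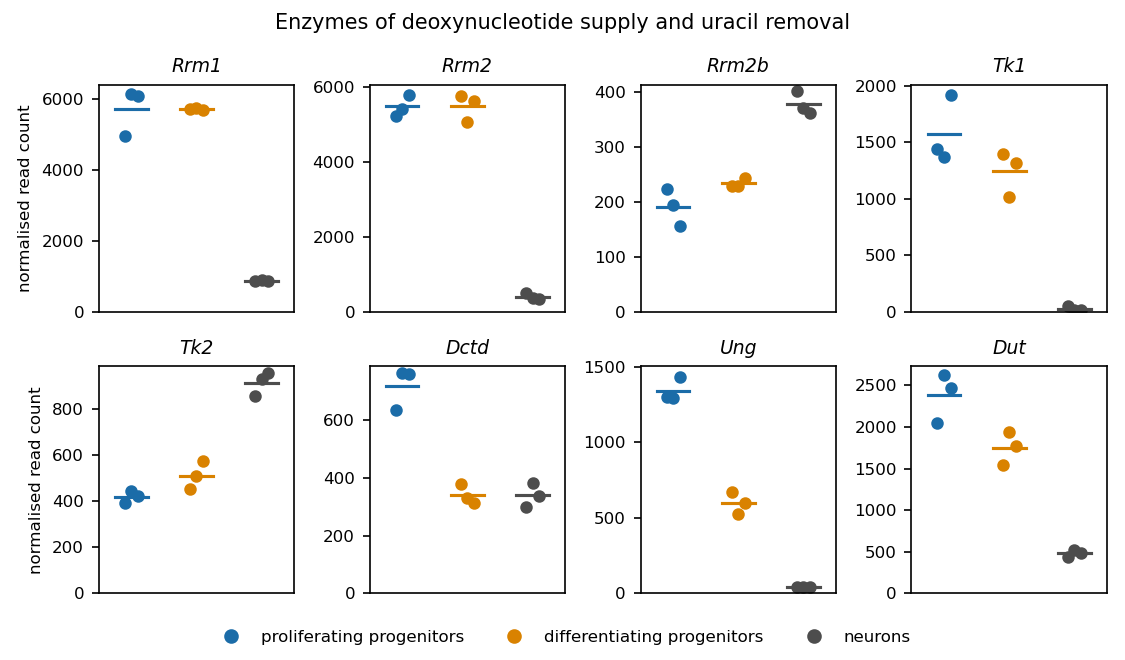
Normalised read count (y axis, from 0, a scale of its own in each panel) of 8 enzymes of deoxynucleotide supply and uracil removal, with 1 point per library and a line at each mean of 3. Rrm1 and Rrm2 overlap between the progenitor groups and are low in neurons, Ung drops at both steps, Dctd drops at the first, and Rrm2b and Tk2 are highest in neurons.

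Of the 34 other nucleotide synthesis genes, 10 were called lower and 0 higher at the first step, with 2 higher at an unadjusted p under 0.05. The first-step counts were 19 lower and 4 higher with the replicate block, and lay between 6 and 12 lower and 0 and 1 higher with a library left out (6 without differentiating replicate 2 or without proliferating replicate 2 or 3). Over all genes tested 11.1% were called lower and 13.8% higher at the first step, and 22% and 24% with the block. With a library left out, 1076 to 1864 of all 15828 genes were lower and 1585 to 2199 higher. The second step called 19 lower and 5 higher, where 26.4% of all genes tested were lower and 27.6% higher. Dctd, the dCMP deaminase that feeds thymidylate synthesis, read 635, 762 and 758 in proliferating progenitors, 379, 328 and 313 in differentiating progenitors and from 299 to 383 in neurons, with a mean of 339 ± 42.1 (SD, n = 3). Its first-step change was -1.08 ± 0.13 (adjusted p = 0.0005), its neuron libraries overlapped the differentiating ones, and the steps differed by 1.07 ± 0.23 (adjusted p = 0.0071), opposite in sign to the 44. Prps2, which makes the ribose phosphate donor of nucleotide synthesis, changed by -0.96 ± 0.14 and Samhd1, a dNTP hydrolase, by -0.80 ± 0.13 at the first step (adjusted p = 0.001 and 0.0021). Umps of pyrimidine synthesis was called too (-0.63 ± 0.12, adjusted p = 0.0039). In neurons against proliferating progenitors 25 were lower and 6 higher, where 31.1% of all genes tested were lower and 32.2% higher. The 6 higher of 34 are thus a smaller share than that of all genes. Besides Rrm2b and Tk2, the 6 were Impdh1 (1.54 ± 0.25, adjusted p = 0.00047), Nt5c (0.64 ± 0.09, adjusted p = 0.00023), Cmpk1 (0.59 ± 0.21, adjusted p = 0.033) and Nme1 (0.42 ± 0.13, adjusted p = 0.018). When libraries were scaled to equal totals the calls of Cmpk1 and Nme1 were lost (adjusted p = 0.21 and 0.33).

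Of the 39 other replication genes in the table, 5 were called lower at the first step (Orc1, Wdhd1, Topbp1, Uhrf1 and Hat1) and 1 higher, Top1, a topoisomerase that transcription also uses. That is 12.8% called lower, near the 11.1% of all genes tested. With the replicate block 18 were lower and 1 higher, beside 22% and 24% of all genes. Without differentiating replicate 1 or 2, or without proliferating replicate 2 or 3, 1 of the 39 was lower. In those fits 1864, 1076, 1114 and 1193 of all 15828 genes were lower. Without either neuron replicate 2 or neuron replicate 3, 3 of the 39 were lower, beside 1553 and 1564 of all genes. Uhrf1, which carries DNA methylation through replication, changed by -0.72 ± 0.14 (adjusted p = 0.0051). At the second step 31 were lower and 1, Pold4, higher, with a median log2 change of -1.79 beside -2.41 for the 44 genes. From proliferating progenitors to neurons 33 were lower and 2 higher. Orc1, the origin recognition subunit, went from 303, 339 and 399 to 9, 6 and 7, and Orc4, another subunit of that complex, from 874, 1084 and 1034 to 1157, 1445 and 1513. Orc4 was the second gene called higher (0.46 ± 0.16, adjusted p = 0.036), a call lost with libraries scaled to equal totals (0.37).

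Of 30 mitosis genes, limma called 0 in either direction at the first step, with 2 higher and 0 lower at an unadjusted p under 0.05. With the block 2 were called higher, Aurka and Incenp (adjusted p = 0.015 and 0.033), and without neuron replicate 1 the count was 4 higher. Over all genes 24% were called higher with the block, and 2152 of 15828 without neuron replicate 1. The median log2 change of the mitosis genes was 0.30, where that of the 44 replication and supply genes was -0.34. Of the 30 mitosis estimates 28 lay above 0. The medians kept these signs under quantile, TMM and equal-total scaling, and with replicate 1 libraries left out they were 0.07 and -0.40. At the second step all 30 mitosis genes were called lower, with a median of -4.83 beside -2.41. The ratio of the summed 44 genes to the summed mitosis genes was 1.27, 1.3 and 1.37 in proliferating progenitors, 0.738, 0.929 and 0.92 in differentiating progenitors, then 2.86, 5.8 and 6.05 in neurons. The ratio was thus lowest in differentiating progenitors, with no overlap between the 3 groups.

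**Figure D5:**
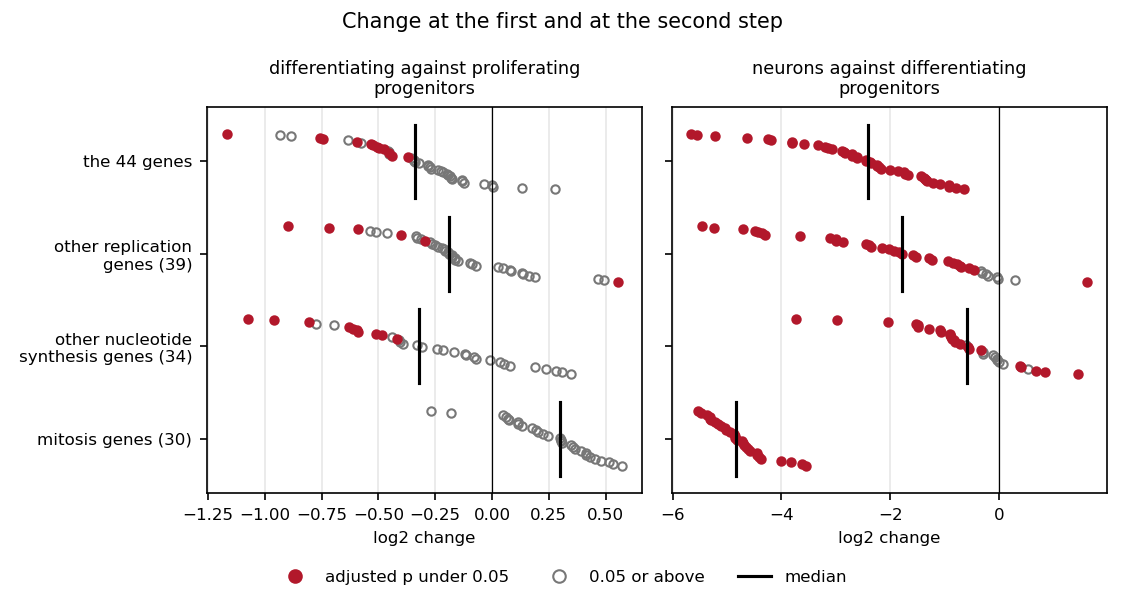
Log2 change (x axis) of each gene at the first step (left) and at the second (right) for the 44 genes and 3 further lists, with filled points at an adjusted p under 0.05 and a line at each median. At the first step the 44 genes centre at -0.34 and the mitosis genes at 0.30, and at the second all points of both lists are filled and below 0.

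The 3 genes of histone supply and chromatin assembly were called lower at the second step. Slbp, which binds the stem-loop of replication histone mRNAs, read 1311, 1726 and 1924 in proliferating progenitors, 1172, 1282 and 1417 in differentiating progenitors, then 270, 383 and 320 in neurons. Chaf1a, the large subunit of the chromatin assembly factor CAF-1, read 2229, 2457 and 2730, then 2233, 1944 and 2163, then 333, 346 and 357, and its partner Chaf1b 1144, 1190 and 1447, then 984, 885 and 1116, then 292, 311 and 289. At the first step limma called 0 of the 3 (adjusted p from 0.075 to 0.19), with 2 lower at an unadjusted p under 0.05, and with the block all 3 were called lower (0.013 to 0.033). Neurons kept 14% of Chaf1a, 19.6% of Slbp and 23.6% of Chaf1b. In GENCODE M21, 52.5% of the exon length of Chaf1a (4648 of 8854 bases) lies on exons of Ubxn6 on the opposite strand, which read 1026 to 1591. The deposited length of Chaf1a is 2844 bases, less than that overlap. How much of the overlap was counted for Chaf1a is therefore unknown.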

How the data were processed

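Poly-A RNA of 9 pools of sorted cells was sequenced strand-specifically, per the labels' protocols. The submitters' processing notes name build mm9 and the tools DESeq 1.8.1, bedtools 2.11, CASAVA 1.8.0 and BWA, with no role for any of them. The deposited table holds 1 normalised score per gene of Ensembl version 61 and library, a whole number that the authors made from read counts, beside folds as the ratio of group means and an adjusted p-value for each comparison. The smallest steps between low values gave from 12649019 to 27584473 reads in 7 libraries and no clear value in 2, so no count model was fitted.

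The 44 members and all gene lists were chosen with earlier results of these data known. Values were taken as log2(value + 1) and tested with limma 3.58.1 (R 4.3.3) with its intensity trend. A single model of the 3 groups was fitted to all 9 libraries (6 residual degrees of freedom), with Benjamini-Hochberg adjusted p-values called at 0.05. The fit was tested on simulated data without a replicate effect, so that test does not cover the pairing of libraries described below. Fold changes of low genes are understated by the pseudocount of 1. Log2 changes with SE and adjusted p are given for the 3 members with the smallest and the 2 with the largest adjusted p of each role, for members called higher or opposite to their role at the first step, and for up to 6 genes per comparison of the other lists plus those higher in neurons. The first-step tests of Mcm3, Mcm5, Mcm6, Pold2 and the other called genes, and the step difference of Dctd, were added with their values in view.

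Replicate numbers paired the libraries: after removal of group means all 9 such pairs correlated across genes (r from 0.507 to 0.767, others -0.64 to 0.428). A fit with this block has 4 residual degrees of freedom. Levels per length divide by the gene length in the deposited table. Levels and kept shares without 1 library were added after seeing the data. Exon overlaps came from GENCODE M21. Protein sequences were not used here. Python 3.11.15, pandas 2.3.3 and matplotlib 3.10.9 did the rest. Single values of some listed genes are not reported here.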

Additional observations from a re-analysis of the deposited data

How the results depend on the processing

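All 44 genes were called lower in neurons against either progenitor group under every alternative run, which were 2 other pseudocounts, other filters on low values, quantile, TMM and equal-total scaling, no intensity trend, the replicate block, replicates 2 and 3 alone, the compared groups alone and each library left out. The first-step count of 12 became 27 lower and 1 higher with the replicate block and 25 lower with replicates 2 and 3 alone, and lay between 7 and 17 with a library left out. The count moved over all 15828 genes too. It was 3489 lower and 3793 higher with the block, and 2649 lower with replicates 2 and 3 alone. With a library left out, 1076 to 1864 of all genes were lower. The larger second-step fall was called for 34 to 42 genes with a library left out and for 44 with the block, which ended no call of a single gene. Over all genes it was called for 1988 to 2542 with a library left out and for 4270 with the block. Equal-total scaling shifted the median of all genes to -0.09 at the first step, to -0.22 at the second and to -0.30 from proliferating progenitors to neurons. It gave 2255 lower and 1885 higher genes at the first step, 5588 and 3383 at the second and 6607 and 3903 over both, against 1758 and 2186, 4183 and 4368, and 4924 and 5099. First-step estimates near 0 changed sign, and none of these passed the test: Rrm1 was -0.12 with quantile, -0.0698 with equal-total scaling and -0.10 with replicates 2 and 3, and Rrm2 was 0.008 with TMM. With a library left out the first-step estimates ranged from -0.0447 to 0.293 for Fen1, from -0.23 to 0.11 for Rfc3, from -0.34 to 0.0042 for Rfc4, from -0.0967 to 0.0575 for Rrm1 and from -0.0368 to 0.0547 for Rrm2. Without division by length Mcm7 made 16.5%, 20.3% and 50.3% of the summed MCM levels in the order of the groups, and Mcm3 17.5% and 14.1% in the progenitor groups. Depth is unclear for 2 libraries, and the lowest neuron values, such as 15 for Tk1 and 19 for Cdc6, rest on few reads.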
